A study of Mus musculus with 36 samples.

Results

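The genes described here are 10 genes of the calcium store in the endoplasmic reticulum (ER): the inositol trisphosphate (IP3) receptor genes Itpr1, Itpr2 and Itpr3, the ryanodine receptor genes Ryr1, Ryr2 and Ryr3, the store sensor genes Stim1 and Stim2, the entry channel gene Orai1 and the pump gene Atp2a2. They were chosen by name, as genes of the channels, sensors and pumps that move calcium out of and into the ER. All 10 were found among the 55487 genes of the count table, and all 10 passed the filter on low counts in each fit. They were followed in 36 mouse RNA sequencing libraries, 18 of dorsal root ganglion (DRG, which holds the cell bodies of sensory neurons) and 18 of dorsal spinal cord, where those neurons end. The mice were wild type or knockout, and were naive or had spared nerve injury (SNI), a model of neuropathic pain in which branches of the sciatic nerve are cut. Each tissue had 5 naive wild-type, 5 naive knockout, 4 SNI wild-type and 4 SNI knockout libraries. The labels gave no age and no time after injury, and did not say how the knockout was made. Separate animals per library are not stated either, so p-values measure the spread between libraries, which may in part be technical.

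IP3 receptors and ryanodine receptors are large channels that let calcium out of the ER, the first when IP3 made by phospholipase C binds to them, the second in response to calcium itself. The pump encoded by Atp2a2, SERCA2, returns calcium to the ER; when the store runs low, STIM proteins in the ER membrane sense it and open ORAI channels in the plasma membrane. Calcium release of this kind shapes excitability in sensory neurons.

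Promoter windows from RefSeq (build GRCm38.p6, 250 bases before to 50 bases after the start of the gene) were matched for 7 of the 10 genes: Itpr2, Itpr3, Ryr1, Ryr2, Stim1, Stim2 and Orai1. Itpr1, Ryr3 and Atp2a2 were not matched. Shown are those of Itpr2, Ryr2 and Stim1, because these genes were higher together in naive knockout cord, as described further on. Capitals mark the GC box, GGGCGG or CCGCCC on the strand shown, and neighbouring boxes may overlap.
Itpr2, chr6:146502174-146502473, minus strand: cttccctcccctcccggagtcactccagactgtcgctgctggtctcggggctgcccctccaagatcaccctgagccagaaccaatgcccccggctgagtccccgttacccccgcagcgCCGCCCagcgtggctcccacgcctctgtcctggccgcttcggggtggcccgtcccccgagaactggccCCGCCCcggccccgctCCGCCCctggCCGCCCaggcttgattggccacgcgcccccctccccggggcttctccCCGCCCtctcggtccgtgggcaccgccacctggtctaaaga
Ryr2, chr13:12106896-12107195, minus strand: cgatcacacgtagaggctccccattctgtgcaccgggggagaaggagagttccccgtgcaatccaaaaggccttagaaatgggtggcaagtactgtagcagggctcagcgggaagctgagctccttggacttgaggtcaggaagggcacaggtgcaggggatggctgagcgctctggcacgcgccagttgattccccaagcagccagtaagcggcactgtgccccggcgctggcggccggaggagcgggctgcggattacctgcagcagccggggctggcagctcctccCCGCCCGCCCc
Stim1, chr7:102267569-102267868, plus strand: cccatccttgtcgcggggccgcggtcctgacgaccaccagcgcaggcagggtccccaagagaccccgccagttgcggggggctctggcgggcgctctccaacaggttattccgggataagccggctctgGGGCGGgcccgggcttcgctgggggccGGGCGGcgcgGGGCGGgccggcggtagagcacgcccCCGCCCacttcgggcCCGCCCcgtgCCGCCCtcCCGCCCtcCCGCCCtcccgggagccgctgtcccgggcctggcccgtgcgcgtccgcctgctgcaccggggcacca
The GC box was found 5 times in the window of Itpr2, 2 times in that of Ryr2 (overlapping, after the start) and 8 times in that of Stim1. The windows of the other genes held it 3 times (Stim2 and Orai1), 2 times (Ryr1) and 1 time (Itpr3). At least 1 GC box was present in 35.7% of all 32851 windows of the same length. The cAMP response element TGACGTCA, the AP-1 element TGANTCA and TGATGNAA, a core of the element bound by C/EBP-ATF pairs, matched in none of the 7 windows on either strand. These occur in 1.79%, 7.81% and 3.97% of all windows. GC content ran from 56.7% (Ryr1) to 78.7% (Stim1), against a median of 52.7% over all windows.

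Levels are given as CPM (read counts scaled to a common library size), and per kilobase (kb) of annotated exon where genes are compared with each other. Libraries held 21.34 to 27.27 M reads as estimated counts (M, the SI prefix mega), and those of the 10 genes ran from 16 (Ryr1) to 21500 (Atp2a2). For naive DRG libraries A2 and A4 the title (wild type) and the genotype field (knockout) disagreed. They were taken as knockout, by the genotype field, and the headers of their deposited columns also named them knockout. The summed level of 8 sensory neuron markers was 3058 to 4928 CPM in DRG and 58.4 to 171 CPM in cord, and that of 7 dorsal horn neuron markers 203 to 298 CPM in DRG and 1341 to 1554 CPM in cord. DRG libraries differed in their make-up. The 5 blood genes (haemoglobins and Alas2) summed to 721 to 3439 CPM in naive wild-type DRG, highest in library C1, and to 189 to 599.7 CPM in naive knockout DRG. In whole tissue, fewer cells of a type and less RNA per cell cannot be told apart.

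Naive wild-type DRG and cord differed in their main IP3 receptor transcript. Itpr3 was the main IP3 receptor transcript of DRG, at 94.5, 81.4, 109, 99.1 and 75.4 CPM, and was at 12.7, 13.5, 10.5, 11.7 and 8.75 CPM in cord. Every DRG library was above every cord library, and the difference was 3.01 ± 0.13 on the log2 scale (± standard error, as for all log2 values here; edgeR adjusted p = 7.44e-21). Itpr1 had the reverse pattern, at 26.5 to 32.5 CPM in DRG and 93 to 106 CPM in cord (-1.78 ± 0.06, adjusted p = 2.83e-25). Itpr2 was at 11.7 ± 3.05 CPM in DRG (mean ± SD, n = 5) and 35.3 ± 1.19 CPM in cord.

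All 10 genes were called between the naive wild-type tissues, 2 higher in DRG and 8 lower, where 76.7% of all genes tested were called (adjusted p under 0.05 over all genes tested). The entry channel gene Orai1 was the other gene higher in DRG, at 8.59 ± 1.03 against 5.62 ± 0.583 CPM (0.61 ± 0.10, adjusted p = 1.18e-06). The release channel genes Ryr2 (-1.55 ± 0.08) and Ryr3 (-1.87 ± 0.08), the sensor genes Stim1 (-1.02 ± 0.07) and Stim2 (-0.98 ± 0.08), and Atp2a2 (-1.65 ± 0.13) were lower in DRG. Ryr1, known as the channel of skeletal muscle, was near the lower end of detection in both tissues, at 1.71 ± 0.463 CPM in DRG and 2.34 ± 0.268 CPM in cord. Its ranges overlapped (-0.45 ± 0.19, adjusted p = 0.0335), and its call was lost with plain library totals (adjusted p = 0.106), which shift this tissue difference by 0.11 on the log2 scale. It was also lost without any 1 of DRG libraries A1 and B3 (0.097 and 0.101) and cord libraries A7, B5 and C5 (0.0511, 0.0525 and 0.0529). The 9 skeletal muscle markers summed to 3.11 to 81.5 CPM in naive wild-type DRG and 10.8 to 22 CPM in cord, and their part in the level of Ryr1 was not tested.

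Per kb, Atp2a2 was the highest of the 10 in both naive wild-type tissues, at 45.9 ± 9.91 CPM per kb in DRG and 144 ± 2.89 in cord. In DRG it was followed by Itpr3 (10.2 CPM per kb), Stim2 (5.16), Stim1 (3.81), Orai1 (3.74), Ryr2 (2.84), Itpr1 (1.56), Ryr3 (1.09), Itpr2 (0.787) and Ryr1 (0.0781). Neighbours in this order did not overlap between libraries except Stim1 with Orai1 and Ryr3 with Itpr2. In cord the order after Atp2a2 was Stim2 (10.2), Ryr2 (8.3), Stim1 (7.7), Itpr1 (5.36), Ryr3 (3.99), Orai1 (2.45), Itpr2 (2.38), Itpr3 (1.27) and Ryr1 (0.107), with overlap between Ryr2 and Stim1 and between Orai1 and Itpr2. Stim2 was thus among the 3 highest per kb in both tissues, while Itpr3 went from the second place in DRG to the ninth in cord. This order depends on the annotated exon length, which need not be that of the transcripts present (10.37 kb for Stim1, 5.13 kb for Stim2). In CPM, Stim1 was above Stim2 in both tissues, at means of 39.5 against 26.5 in DRG and 79.8 against 52.3 in cord.

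**Figure D1:**
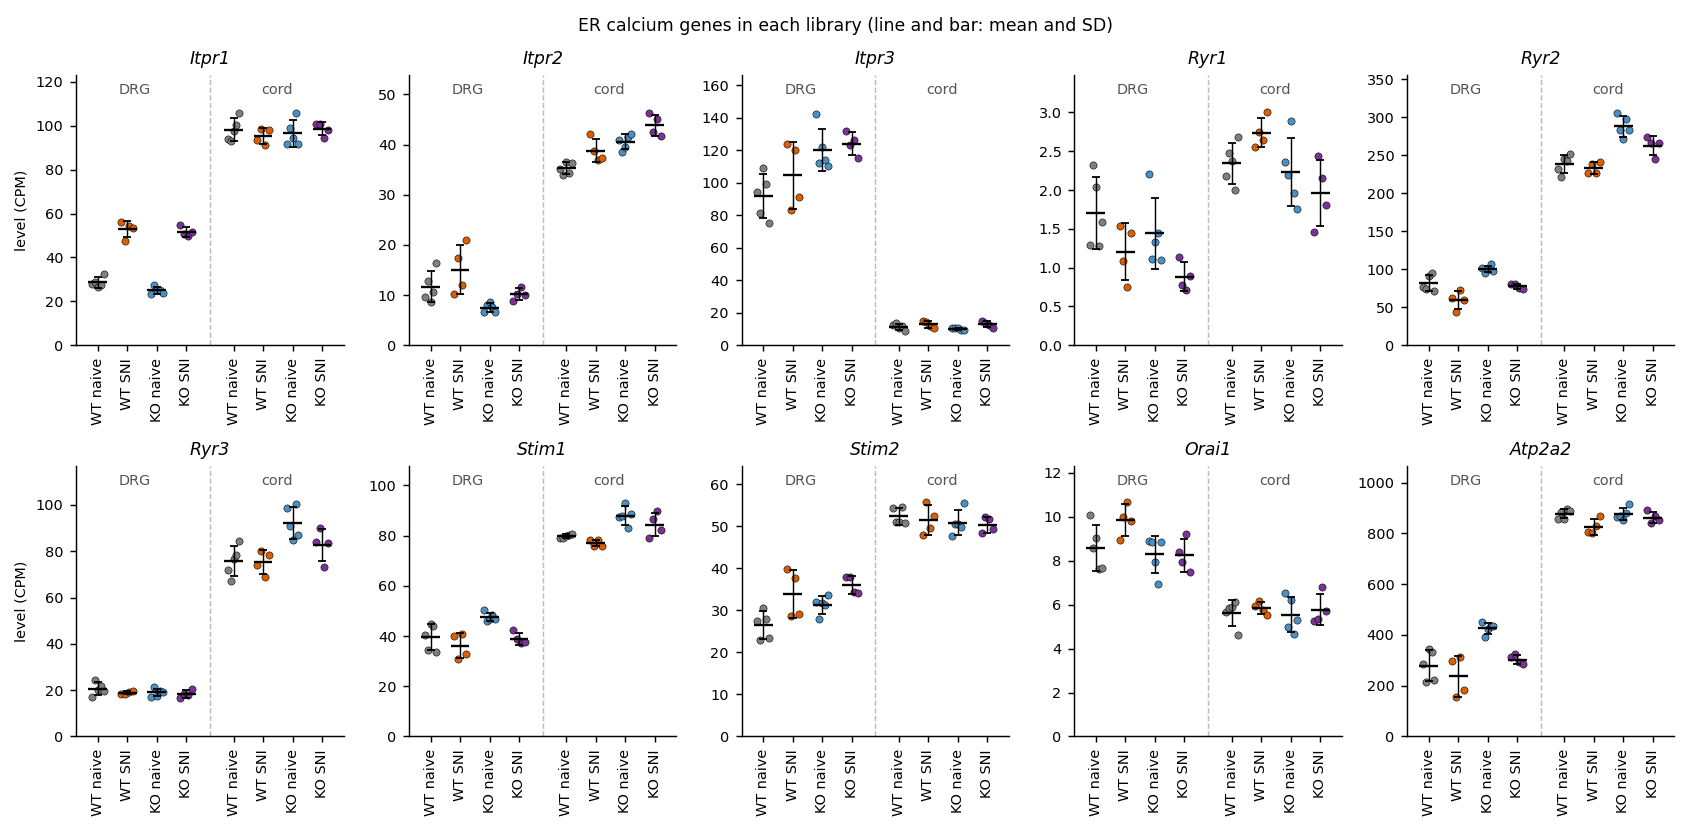
Level (CPM, y axis from 0) of each of the 10 genes in every library, by group, DRG on the left and cord on the right of each panel; points are libraries, horizontal lines means and bars SD (n = 5 naive, n = 4 SNI). Itpr3 and Orai1 have higher means in DRG and the other 8 in cord, and Itpr1 goes from 26.5 to 32.5 CPM in naive wild-type DRG to 47.7 to 56.3 CPM after SNI.

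As a share of the 3 IP3 receptor transcripts per kb, Itpr3 made up 80.9 ± 4.41% in naive wild-type DRG and 14.1 ± 2.49% in cord. Itpr1 made up 12.6 ± 2.16% in DRG and 59.5 ± 2.3% in cord, and Itpr2 6.44 ± 2.27% and 26.4 ± 0.809%. The ryanodine receptor genes differed less between the tissues: Ryr2 held 70.8 ± 3.79% of the family in DRG and 67 ± 0.878% in cord, and Ryr3 held 27.2 ± 3.38% and 32.1 ± 0.897%. Ryr1 held 1.3 to 2.67% and 0.722 to 0.997%. Of the STIM pair per kb, Stim2 had 57.5 ± 0.833% in DRG and 57 ± 0.972% in cord, though its mean CPM was below that of Stim1. All these shares depend on the annotated exon lengths. The summed IP3 receptor level per kb was higher in DRG (12.5 ± 1.2 CPM per kb) than in cord (9.02 ± 0.151), and the summed ryanodine receptor level was lower (4 ± 0.407 against 12.4 ± 0.736). Libraries of the 2 tissues did not overlap in either sum.

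**Figure D2:**
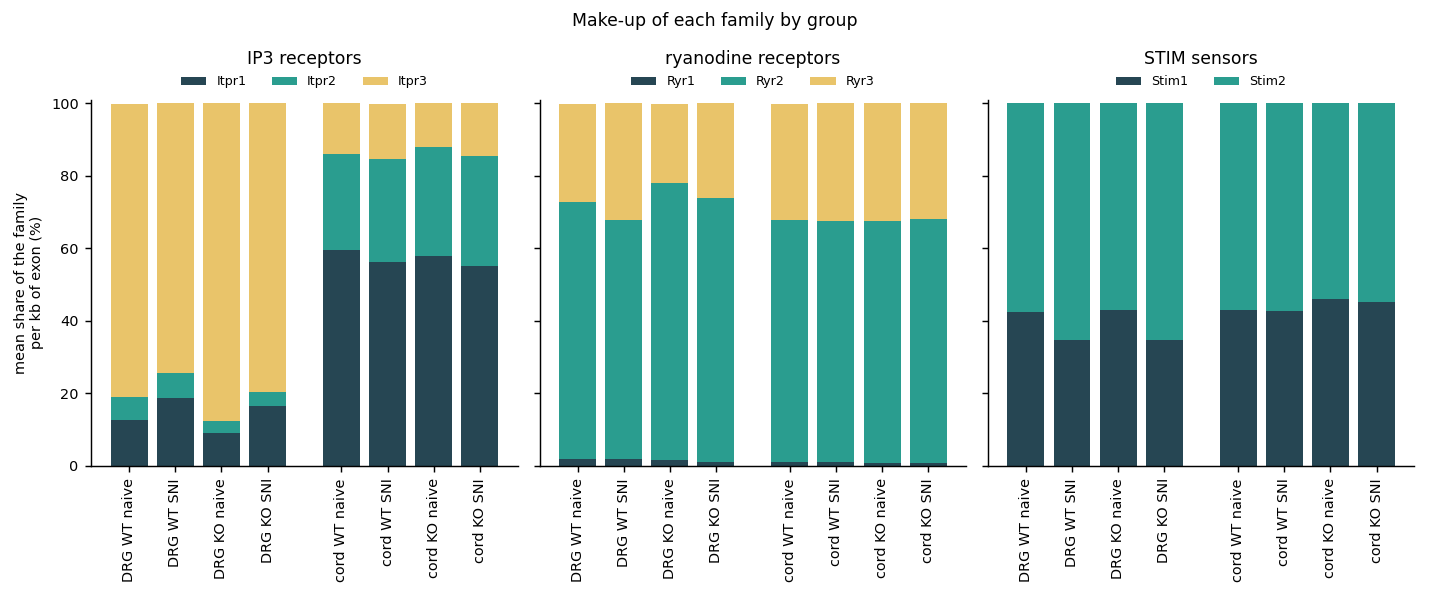
Mean share (%) of each gene in its family per kb of exon, by group, for IP3 receptors, ryanodine receptors and STIM sensors. Itpr3 takes 80.9% of the IP3 receptors in naive wild-type DRG and Itpr1 59.5% in cord, and the Stim2 share is 57.5% in naive and 65.3% in SNI wild-type DRG.

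Itpr1 was higher after injury in DRG of both genotypes. In both tissues, naive libraries have codes with the letters A, B and C and SNI libraries E and F. What the letters stand for is not given, so injury and letter cannot be told apart in any injury comparison here. No sham group is among the labels. Itpr1 was at 28, 28.7, 26.5, 27.3 and 32.5 CPM in the 5 naive wild-type libraries and at 56.3, 47.7, 54.2 and 53.4 CPM in the 4 SNI libraries, with no overlap (0.89 ± 0.07, edgeR adjusted p = 1.21e-08). In knockout DRG it was at 23.5, 27.5, 25.1, 25 and 23.9 CPM in naive libraries and 54.6, 50.6, 49.7 and 51.6 CPM after SNI (1.08 ± 0.07, adjusted p = 7.63e-10). The SNI libraries of both genotypes therefore lay within 47.7 to 56.3 CPM. The 8 macrophage and microglia markers also stood higher in injured DRG, with sums of 213 to 417 CPM in naive and 501 to 958 CPM in SNI wild-type libraries. Their part in the rise of Itpr1 was not tested.

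With this rise, the make-up of the IP3 receptor family in DRG moved toward Itpr1. Its share per kb was 10.3 to 15.8% in naive and 17.4 to 20.2% in SNI wild-type libraries, and 7.35 to 10.4% and 15.5 to 17.4% in knockout libraries. The groups did not overlap in either genotype. Itpr3 was still the main form after SNI, at 74.4 ± 4.53% in wild type and 79.6 ± 0.838% in knockout (n = 4).

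The other IP3 receptor genes did not pass edgeR's test for injury in DRG. Itpr3 was at 105 ± 20.6 CPM in SNI wild-type DRG, 0.20 ± 0.12 from naive (adjusted p = 0.271), and at 124 ± 7.1 CPM in SNI knockout DRG (0.08 ± 0.12, adjusted p = 0.679). Itpr2 was at 10.2, 17.3, 11.9 and 20.9 CPM in SNI wild-type libraries against 8.69 to 16.4 CPM in naive ones (0.38 ± 0.19, adjusted p = 0.18). Itpr2 was called in wild type with the log2 blood sum as a covariate (0.67, adjusted p = 0.00081) and without naive library C1 (0.0412) or SNI library E1 (0.0485). The libraries high in Itpr2, E3 and F3, were also those with the highest macrophage and microglia sums. Their part in the level of Itpr2 was not tested. In knockout DRG, Itpr2 was at 8.83 to 11.7 CPM after SNI and 6.6 to 8.57 CPM in naive libraries, without overlap but short of the threshold (0.48 ± 0.20, adjusted p = 0.0866), which it passed when only these groups were fitted (0.00248).

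The ryanodine receptor gene Ryr2 fell with injury in DRG. In wild type it was at 77.1, 74.6, 91, 95 and 70.9 CPM in naive and 62.4, 44.3, 72.4 and 59.7 CPM in SNI libraries (-0.44 ± 0.11, edgeR adjusted p = 0.00496). The highest SNI library, F1, overlapped with the lowest naive library, C1. In knockout it was at 95.5 to 107 CPM in naive and 73.4 to 80.6 CPM in SNI libraries, without overlap (-0.34 ± 0.11, adjusted p = 0.023). Ryr3, another neuronal form, was at 20.6 ± 2.71 CPM in naive and 18.9 ± 0.714 CPM in SNI wild-type DRG (-0.12 ± 0.09, approximate 95% interval -0.30 to 0.06). Ryr1 was at 0.745 to 1.54 CPM in SNI wild-type DRG and did not pass the test in either genotype (adjusted p = 0.181 and 0.0746). The 8 sensory neuron markers summed to 3532 to 4810.1 CPM in naive and 3058 to 3764 CPM in SNI wild-type DRG, and the 8 general neuron markers to 6802 to 9470 and 8022 to 11604 CPM; their part in the fall of Ryr2 was not tested. The wild-type call of Ryr2 was lost when only the naive and SNI wild-type libraries were fitted (adjusted p = 0.0514), and the knockout call without A2 and A4, the libraries with the disagreeing labels (adjusted p = 0.0538).

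The store sensor genes had estimates in opposite directions in both genotypes, though only Stim2 in wild type (higher) and Stim1 in knockout (lower) were called. The injury effect itself was not called different between genotypes. Knockout minus wild type, it was -0.13 ± 0.14 for Stim2 and -0.14 ± 0.13 for Stim1. Stim2, whose protein responds to small drops of store calcium, was at 27.5, 23, 30.6, 28 and 23.3 CPM in naive and 39.9, 28.6, 37.7 and 29.2 CPM in SNI wild-type DRG and rose (0.36 ± 0.10, adjusted p = 0.0125). SNI libraries E3 and F3 overlapped with the naive range, and E1 and F1 were above it. In knockout DRG Stim2 was at 27.9 to 33.7 CPM in naive and 34 to 38 CPM in SNI libraries, not overlapping but not called (0.24 ± 0.10, adjusted p = 0.0913). It was called when only these groups were fitted (edgeR adjusted p = 0.0058) and with the blood sum as a covariate (0.0121). Stim1, the sensor that opens ORAI channels after larger store depletion, fell in knockout DRG from 45.9 to 50.2 CPM in naive to 37.1 to 42.2 CPM in SNI libraries (-0.26 ± 0.09, adjusted p = 0.0437). In wild-type DRG it was at 33.6 to 44.7 and 31 to 40.8 CPM (-0.11 ± 0.09, adjusted p = 0.418).

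The make-up of the sensor pair separated naive from SNI libraries in DRG. Stim2 made up 56.2 to 58.3% of the pair per kb in the 5 naive wild-type DRG libraries and 64.1 to 66.8% in the 4 SNI libraries. In knockout DRG the ranges were 55.1 to 59.3% and 64.6 to 66.3%. The naive and SNI groups did not overlap in either genotype. In cord they overlapped in both genotypes, at 55.9 to 58.1% and 55.3 to 59.8% in wild type and 52.3 to 55.9% and 53.7 to 55.2% in knockout. SNI wild-type and SNI knockout cord did not overlap, with the share lower in knockout. The Stim2 call in wild-type DRG was lost when only the 2 groups compared were fitted (adjusted p = 0.0602). The Stim1 call in knockout DRG was lost without any 1 of libraries A2, B4, C2, E4, F2 and F4 (adjusted p = 0.061 to 0.0915), without both A2 and A4 (0.116), and with the blood or the skeletal muscle sum as a covariate (0.0913 and 0.0809).

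Orai1 and Atp2a2 did not pass edgeR's test for injury in DRG. Orai1 was at 7.61 to 10.1 CPM in naive and 8.94 to 10.7 CPM in SNI wild-type DRG (0.21 ± 0.10, adjusted p = 0.142) and differed by 0.03 ± 0.10 in knockout. Atp2a2 was at 284, 216, 345, 331 and 221 CPM in naive and 296, 154, 313 and 183 CPM in SNI wild-type DRG, so each group held both low and high libraries (-0.23 ± 0.18, adjusted p = 0.401). In knockout DRG it was at 392 to 451 CPM in naive and 284 to 324 CPM in SNI libraries, without overlap (-0.46 ± 0.18, adjusted p = 0.0634). Fitted on the knockout DRG libraries alone, whose spread is smaller, this difference was called (adjusted p = 6.44e-06). DESeq2 also called it (adjusted p = 0.032), as did edgeR without any 1 of wild-type SNI libraries E1, E3 and F1 (0.0472, 0.0238 and 0.0392).

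In all, 3 of the 10 genes were called for injury in wild-type DRG (Itpr1, Stim2, Ryr2), where 24.9% of all genes tested were called, and 3 in knockout DRG (Itpr1, Ryr2, Stim1), where 28.5% were. The share of the 10 genes was near that of all genes. The median log2 fold change of the 10 was 0.04 in wild type and 0.01 in knockout, against -0.01 and 0.01 over all genes tested.

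**Figure D3:**
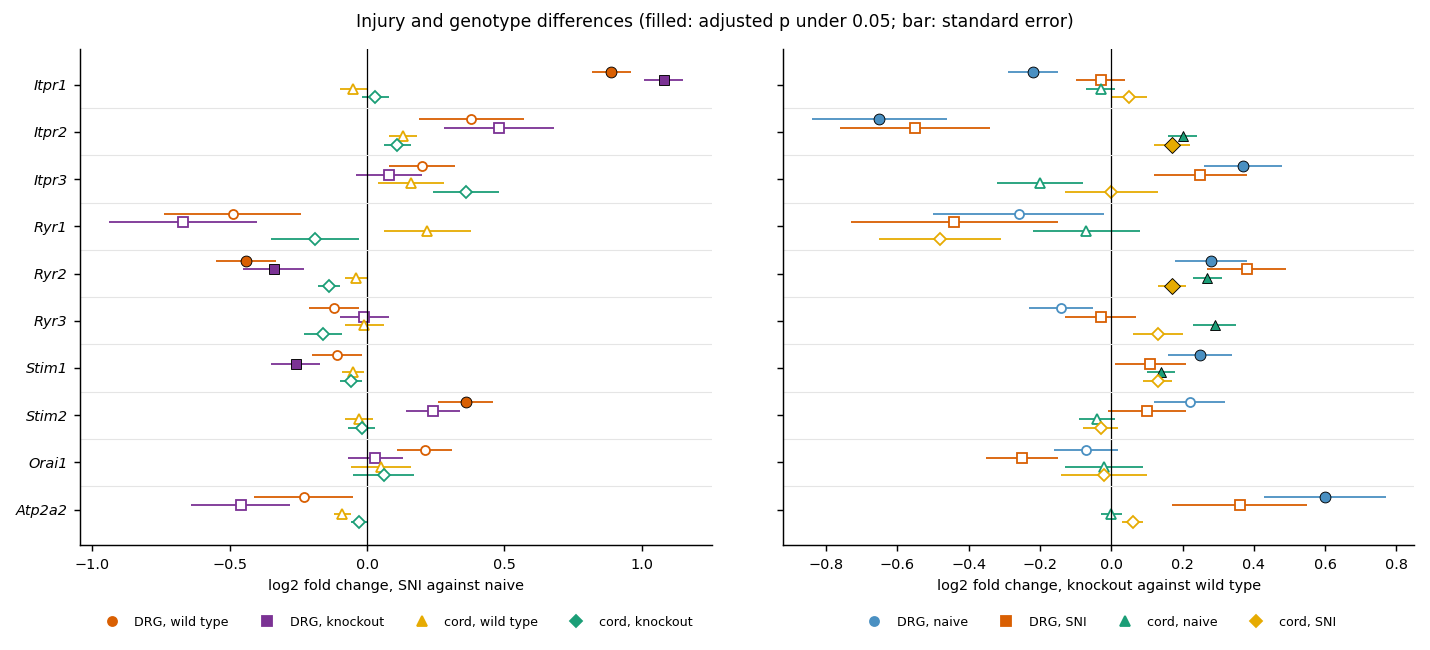
Log2 fold change (x axis) of the 10 genes for SNI against naive (left) and knockout against wild type (right), in each tissue and genotype or state; bars are standard errors, filled symbols were called (adjusted p under 0.05) and open symbols were not. Itpr1 stands at 0.89 and 1.08 in injured DRG, beyond the other genes, while in cord no gene was called for injury.

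None of the 10 genes was called for injury in the cord by edgeR. In wild-type cord, where 2.88% of genes tested were called, DESeq2 and limma called 0. An unadjusted edgeR p under 0.05 was found for 2 of the 10, and for 2098 of all 18843 genes tested. Itpr1 was at 98.3 ± 5.44 CPM in naive and 95.4 ± 3.62 CPM in SNI libraries, a difference of -0.05 ± 0.05 (approximate 95% interval -0.14 to 0.04). In knockout cord, where 4.42% were called, 4 of the 10 had an unadjusted p under 0.05, as had 2726 of all 18843 genes tested. There DESeq2 and limma each called 1, Ryr2. Ryr2 was at 288 ± 13.5 CPM in naive and 263 ± 12.2 CPM in SNI knockout cord (-0.14 ± 0.04, edgeR adjusted p = 0.0629; DESeq2 0.0329; limma 0.0449). The macrophage and microglia markers stood higher after injury in cord as well, with sums of 203 to 239.7 CPM in naive and 409 to 447 CPM in SNI wild-type libraries.

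The injury effect differed between the tissues for Itpr1, by 0.93 ± 0.08 in wild type (DRG minus cord, adjusted p = 1.31e-10) and by 1.01 ± 0.08 in knockout (adjusted p = 1.55e-11). In wild type it also differed for Ryr2 (-0.42 ± 0.12, adjusted p = 0.0139) and Stim2 (0.38 ± 0.12, adjusted p = 0.0227). These were 3 of the 10 genes in wild type, where 12.5% of genes tested were called, and 1 in knockout, where 17.2% were. The Ryr2 difference was lost without DRG library B3 (adjusted p = 0.0547). The Stim2 difference was lost without DRG library E1 or cord library E5 (0.0623 and 0.0626).

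Naive knockout DRG differed from naive wild-type DRG in 6 of the 10 genes, where 28.2% of all genes tested were called. Itpr3, Ryr2, Stim1 and Atp2a2 were higher in knockout, and Itpr1 and Itpr2 were lower. Atp2a2 was at 451, 392, 424, 434 and 434 CPM in knockout against 216 to 345 CPM in wild type (0.60 ± 0.17, edgeR adjusted p = 0.0171). Itpr3 was at 110.1 to 142 against 75.4 to 109 CPM (0.37 ± 0.11, adjusted p = 0.0262), Ryr2 at 95.5 to 107 against 70.9 to 95 CPM (0.28 ± 0.10, adjusted p = 0.0474), and Stim1 at 45.9 to 50.2 against 33.6 to 44.7 CPM (0.25 ± 0.09, adjusted p = 0.0376). Itpr2 was at 6.6 to 8.57 against 8.69 to 16.4 CPM (-0.65 ± 0.19, adjusted p = 0.0193). These 5 genes did not overlap between the genotypes. Itpr1 did, at 23.5 to 27.5 against 26.5 to 32.5 CPM (-0.22 ± 0.07, adjusted p = 0.0228). How many of all genes tested did not overlap was not counted. Ryr1, Ryr3, Stim2 and Orai1 were not called, and of these Stim2 was nearest to the threshold (0.22 ± 0.10, adjusted p = 0.0858).

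Markers of other cells moved with genotype in the same libraries. The 8 general neuron markers summed to 9953 to 12493 CPM in naive knockout and 6802 to 9470 CPM in naive wild-type DRG, and the blood genes to 189 to 599.7 and 721 to 3439 CPM. Neither sum overlapped. The macrophage and microglia sum was 143 to 239 against 213 to 417 CPM and the fibroblast sum 1444 to 1845 against 1699 to 3083 CPM. With the log2 blood sum as a covariate, 0 of the 10 genes were called, Atp2a2 stood at 0.24 (adjusted p = 0.726), and Itpr2 at 0.03 (adjusted p = 0.977), no longer lower. Because the blood sums of the naive genotypes did not overlap, this fit cannot tell blood and genotype apart. The part of blood, neurons and fibroblasts in the genotype difference was not tested.

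The number of calls in naive DRG also changed when single libraries were left out. Without wild-type library C1, which had the highest blood sum, 0 of the 10 genes were called. The genes called in the full fit kept their direction there, with Atp2a2 at 0.52 (edgeR adjusted p = 0.0515) and Itpr2 at -0.50 (0.0659). The share of all genes called in these smaller fits is not given here. Without wild-type library A3 1 was called (Itpr2), without knockout library A2 1 (Atp2a2) and without knockout library C2 3 (Itpr2, Itpr3 and Atp2a2). Without both A2 and A4, the libraries whose title and genotype field disagreed, 1 was called (Itpr1). Within the 9 wild-type DRG libraries, the lowest Atp2a2 values were in A3 (216 CPM) and C1 (221 CPM) among naive libraries and in E3 (154 CPM) and F3 (183 CPM) after SNI. The same 4 libraries had the highest fibroblast sums of their groups, at 2971, 3083, 3387 and 3349 CPM, and the lowest neuron sums, at 7767, 6802, 9243 and 8022 CPM.

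**Figure D4:**
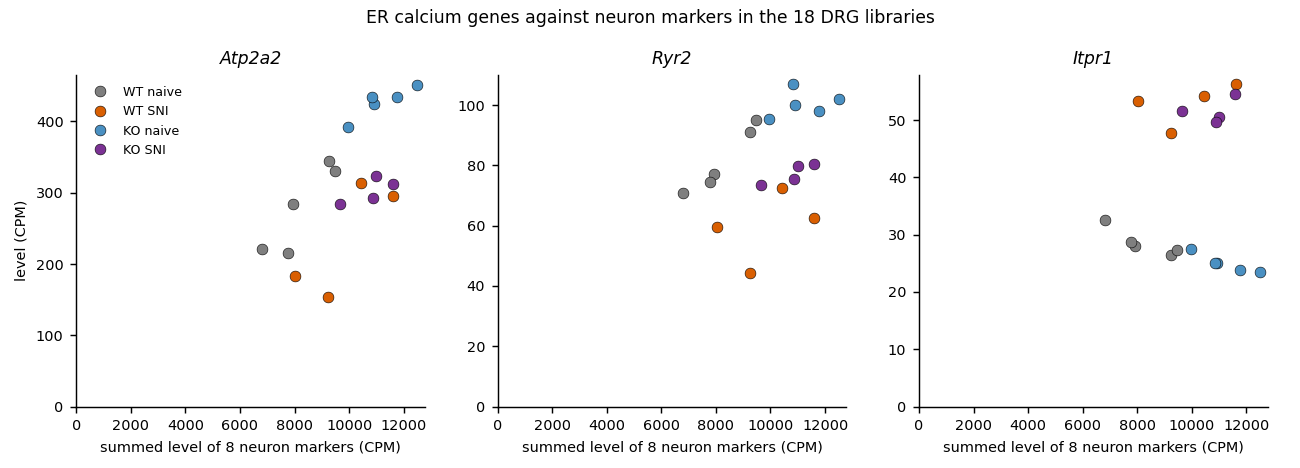
Level of Atp2a2, Ryr2 and Itpr1 (CPM, y axis) against the summed level of 8 general neuron markers (CPM, x axis) in the 18 DRG libraries; each point is 1 library, coloured by group. Naive knockout libraries lie at 9953 to 12493 CPM of neuron markers and 392 to 451 CPM of Atp2a2, above the naive wild-type libraries on both axes, while Itpr1 is lower in every naive than in every SNI library.

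After injury no gene of the 10 was called between knockout and wild-type DRG by edgeR, where 5.1% of genes tested were called. Of the 10, 3 had an unadjusted p under 0.05 (Ryr2, Itpr2 and Orai1), as had 4190 of all 19496 genes tested. DESeq2 and limma each called 1, Ryr2. Ryr2 was at 80.6, 79.9, 75.6 and 73.4 CPM in SNI knockout and at 62.4, 44.3, 72.4 and 59.7 CPM in SNI wild-type DRG, without overlap (0.38 ± 0.11, adjusted p = 0.0612; DESeq2 0.0247; limma 0.0445). Itpr1 differed by -0.03 ± 0.07 (approximate 95% interval -0.17 to 0.11), Atp2a2 by 0.36 ± 0.19 (adjusted p = 0.271) and Itpr2 by -0.55 ± 0.21 (adjusted p = 0.14). Call counts in SNI DRG changed with single libraries as well. Leaving out wild-type library E1 brought a call of Itpr2 (adjusted p = 0.0441), and leaving out wild-type library F1 or naive wild-type library B3 one of Ryr2 (0.0134 and 0.0467).

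The interaction of genotype and injury, which asks whether injury acted differently in knockout DRG, was called for 0 of the 10 genes by edgeR, DESeq2 and limma, with 0 at an unadjusted p under 0.05. It was called for 0.0256% of all genes tested (1160 genes had an unadjusted p under 0.05). For Itpr1 it was 0.19 ± 0.10 (unadjusted p = 0.0679, adjusted p = 0.847), for Ryr2 0.10 ± 0.15, for Stim2 -0.13 ± 0.14 and for Atp2a2 -0.23 ± 0.25. In cord it was again called for 0 of the 10 by each of these tools, with 0 at an unadjusted p under 0.05, and for 0% of all genes tested (1150 genes had an unadjusted p under 0.05). The upper bound of the approximate 95% interval in DRG was 0.37 for Itpr1 and 0.40 for Ryr2.

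In naive cord 4 of the 10 genes were higher in knockout and none lower, where 19.7% of genes tested were called. Ryr2 was at 305, 283, 271, 298 and 283 CPM in knockout and 232, 222, 245, 243 and 251 CPM in wild type (0.27 ± 0.04, edgeR adjusted p = 3.64e-05). Ryr3 was at 98.6, 91.1, 84.7, 100.2 and 87 CPM against 71.7, 67.3, 76.5, 78.2 and 84.5 CPM (0.29 ± 0.06, adjusted p = 0.004). Itpr2 was at 38.6 to 42.2 against 33.9 to 36.6 CPM (0.20 ± 0.04, adjusted p = 0.0026), and Stim1 at 82.9 to 93.1 against 79.1 to 80.8 CPM (0.14 ± 0.04, adjusted p = 0.00939). None of the 4 overlapped between the genotypes, though the share of all genes without overlap was not counted. The same 4 were called without any 1 library. With limma Stim1 was not called (adjusted p = 0.0567). The summed ryanodine receptor level per kb was 15 ± 0.813 in naive knockout and 12.4 ± 0.736 CPM per kb in naive wild-type cord, with Ryr2 at 66.8 ± 0.709 and 67 ± 0.878% of it. Itpr1 (-0.03 ± 0.04, approximate 95% interval -0.11 to 0.06) and Atp2a2 (876 ± 23.3 against 876 ± 17.6 CPM) were not called.

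The general neuron markers summed to 5778 to 6321 CPM in naive knockout cord and 6038 to 7557 CPM in naive wild-type cord. The blood sums were 141 to 178 against 175 to 496 CPM and the fibroblast sums 157 to 375 against 214 to 563 CPM. The part of neurons, blood and fibroblasts in these differences was not tested. Direction in Itpr2 was opposite in the naive tissues, -0.65 ± 0.19 in DRG and 0.20 ± 0.04 in cord, and the difference between tissues in the genotype effect was not tested.

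After injury, 2 of the 10 genes were higher in knockout than in wild-type cord, where 6.26% of genes tested were called. Ryr2 was at 274, 266, 245 and 266 CPM in SNI knockout and 227, 238, 227 and 241 CPM in SNI wild-type cord (0.17 ± 0.04, edgeR adjusted p = 0.0189), and Itpr2 was at 46.2, 42.5, 45 and 41.8 CPM against 42.1, 38.7, 37 and 37.4 CPM (0.17 ± 0.05, adjusted p = 0.0303). Ryr2 did not overlap between the groups and Itpr2 did, through 1 library of each genotype. Stim1 was at 79.2 to 89.8 against 75.9 to 78.3 CPM (0.13 ± 0.04, adjusted p = 0.0633; DESeq2 0.0319), and Ryr3 at 73 to 89.9 against 69 to 80.3 CPM (0.13 ± 0.07, adjusted p = 0.336). Without cord library F5 0 genes were called (Ryr2 at 0.0685, Itpr2 at 0.112), and without any 1 of the other 7 SNI cord libraries 1 was called (Stim1 without E6, otherwise Ryr2 or Itpr2). Ryr2 thus was higher in knockout in all 4 settings and was called in 3 of them. The differences were 0.28 and 0.38 in naive and SNI DRG and 0.27 and 0.17 in naive and SNI cord. The naive DRG call was lost with plain library totals (edgeR adjusted p = 0.0659), with no filter (0.0522) and without A2 and A4 (0.0904). It was also lost with the blood covariate (0.72) and without any 1 of several libraries, among them C1 (0.126).

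Of 118 further genes of ER calcium handling in 7 lists, 115 were tested in DRG. With injury, 15 rose and 21 fell in wild-type DRG (median -0.04), and 15 rose and 31 fell in knockout DRG (median -0.06). Of the listed genes, 31.3% were called in wild type, against 24.9% of all genes tested, and 40% in knockout, against 28.5%; whether these shares differ was not tested. Among 16 genes of IP3 production and breakdown, 3 rose and 4 fell in each genotype. Itpkc, the kinase gene that removes IP3 by adding a phosphate, rose by 1.17 ± 0.09 in wild type (adjusted p = 3.43e-08) and 1.62 ± 0.10 in knockout. The phospholipase C genes Plcd1 and Plcd4, whose enzymes make IP3, moved apart: Plcd1 by 0.92 ± 0.07 and 0.93 ± 0.08, while Plcd4 fell in wild type, where naive libraries averaged 58.3 CPM and SNI libraries 28.9 CPM (adjusted p = 1.32e-08). In knockout Plcd4 fell by 0.96 ± 0.08 on the log2 scale.

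Among 31 tested partners of the release channels, 6 rose and 7 fell in wild-type DRG and 7 rose and 10 fell in knockout DRG. Itpripl2, a relative of an IP3 receptor-binding protein gene, rose in wild type (0.53 ± 0.08, adjusted p = 3.81e-05). Selenon, which encodes an ER selenoprotein linked to ryanodine receptors, rose by 0.43 ± 0.08, and Asph, whose products include the ER protein junctate, fell by 0.32 ± 0.06 on the log2 scale. Of 14 partners of store-operated entry, 3 rose and 4 fell in wild type and 2 rose and 6 fell in knockout. The channel gene Trpc6 fell in wild type (-0.58 ± 0.08). Saraf, whose protein turns off store-operated entry, rose in wild type (0.30 ± 0.07, adjusted p = 0.0018) and in knockout (0.29 ± 0.07, adjusted p = 0.00239).

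Of 12 tested pumps and exchangers, 0 rose and 2 fell in wild type (Atp2b3, a plasma membrane calcium pump gene, by -0.79 ± 0.20, and Pln, which encodes the SERCA inhibitor phospholamban, by -0.45 ± 0.12). In knockout 0 rose and 3 fell. None of the 16 ER calcium buffers and chaperones was called in wild-type DRG by edgeR, with 0 at an unadjusted p under 0.05, and 1 fell in knockout (Rcn2, -0.18 ± 0.05). Of 10 genes of ER leak and other stores, 1 rose and 2 fell in wild type. The lysosomal calcium channel gene Tpcn2 fell (-0.44 ± 0.07), and Cd38, whose enzyme makes the ryanodine receptor messenger cyclic ADP-ribose, rose (0.54 ± 0.14, adjusted p = 0.0068). Of 16 genes of mitochondrial uptake and contact sites, 2 rose and 2 fell, among them Mcub, a subunit that dampens the mitochondrial uniporter (0.44 ± 0.09), and Mcu, the uniporter pore (-0.33 ± 0.09).

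In cord 113 of the 118 were tested. With injury 4 rose and 2 fell in wild type and 6 rose and 0 fell in knockout, or 5.31% in each, against 2.88% and 4.42% of all genes tested. The phospholipase C genes Plcb2 (0.93 ± 0.13 in wild type, adjusted p = 2.45e-05) and Plcg2 (0.80 ± 0.11 in wild type and 1.04 ± 0.11 in knockout) rose in both genotypes, Plcb2 in knockout with an adjusted p of 5.61e-07. Plcg2 went from 4.8 to 8.36 CPM in wild type, beside the higher macrophage and microglia sums given above, whose part was not tested.

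Between genotypes in naive DRG, 36% of the listed genes were called, against 28.2% of all genes tested. Higher and lower in knockout were 8 and 2 of 30 release channel partners, 3 and 2 of 12 pumps and exchangers, 4 and 2 of 14 partners of store-operated entry, 3 and 1 of 10 genes of ER leak and other stores, 6 and 2 of 16 mitochondrial genes, and 2 and 2 of 16 in each of the lists of IP3 production and of ER buffers. In SNI DRG 4.39% of the listed genes were called, against 5.1%. The exchanger gene Slc8a3 (0.63 ± 0.14, adjusted p = 0.00432), the plasma membrane pump gene Atp2b3 (0.63 ± 0.18) and Mfn2, which tethers mitochondria to the ER (0.50 ± 0.15), were higher in knockout, and Slc8a1 (-0.44 ± 0.10) and Pkd2 (-0.62 ± 0.16), an ER cation channel gene, were lower. The marker sums that moved with genotype in naive DRG apply to these genes as well. In naive cord 22.3% of the listed genes were called, against 19.7% of all genes tested. None of 30 release channel partners was higher and 6 were lower, and 0 and 4 of 16 mitochondrial genes. Of 14 partners of store-operated entry 4 were higher and 1 lower, of 16 genes of IP3 production 2 and 2, of 10 pumps and exchangers 2 and 0, of 10 genes of ER leak 2 and 0, and of 16 ER buffers 1 and 1. In SNI cord 10.7% of the listed genes were called, against 6.26%. Sri, which encodes sorcin, a binding partner of ryanodine receptors, was lower in naive knockout cord (45.5 against 66.2 CPM, -0.54 ± 0.05, adjusted p = 7.86e-08).

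Genes with the most similar pattern to each gene called for injury in DRG were found by the root mean square difference of log2(CPM + 1) over the 8 group means, each centred on its own mean, among 20626 genes. For Itpr1 they were Tchh (0.09), Cth (0.10) and Cpne5 (0.11), all of them lower in level (1.04, 0.587 and 4.71 CPM in naive wild-type DRG). For Ryr2 they were Castor2, Adcy1 and Arpp21 (each 0.08), for Stim1 Pou6f1 (0.03), Cdc37l1 (0.04) and Rhbdd2 (0.04), and for Stim2 C2cd2l (0.05), Itgav (0.05) and Man2a2 (0.05). These distances compare with a range over the groups of 1.94 for Itpr1, 2.27 for Ryr2, 1.27 for Stim1 and 0.96 for Stim2.

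Gene positions are from GENCODE M21 on build GRCm38. Itpr1 lies on chromosome 6 at 108213096 to 108551109 and shares exon bases with Gm44040 and Gm44101 on the opposite strand. Itpr3 (chromosome 17, 27057304 to 27122223) shares some with Itpr3os, Ryr3 (chromosome 2, 112631355 to 113217096) with Aven, Orai1 (chromosome 5, 123015074 to 123030456) with Gm2479, Atp2a2 (chromosome 5, 122453513 to 122502225) with Gm43361, and Ryr1 (chromosome 7, 29003344 to 29125179) with Gm26604 and Gm44408, all on the opposite strand. Itpr3 also shares some with Mir7677, on its own strand. Itpr2 (chromosome 6, 146108299 to 146502223), Ryr2 (chromosome 13, 11553102 to 12106945), Stim1 (chromosome 7, 102267806 to 102437319) and Stim2 (chromosome 5, 53998499 to 54121057) share none. The libraries were made with a stranded kit, but whether the counting used strand was not given in the sources used here, so reads in shared stretches cannot be assigned with certainty.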

How the data were processed

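Libraries were TruSeq stranded mRNA, from RNA taken with an RNeasy Plus Universal kit, per the labels' protocols. The tools HISAT2, RSEM and FastQC 0.11.5 and the build GRCm38 are named per the submitters' processing notes, while tool roles, other versions, annotation and strand setting are not given in the sources used here. As files, the authors deposited expected counts, estimated reads per gene that need not be whole, and a table of normalised signal values, each raw column times 1 factor per library, per the file headers and values. The deposited column of wild-type SNI DRG library E1 mixed decimal commas (9150 cells) with points and was therefore classed as other; commas were read as points and 1 lost cell, of no gene described here, was restored from the normalised table.

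Expected counts were rounded. Each tissue (18 libraries, 4 groups) and both together (36 libraries, 8 groups) were fitted with edgeR 4.0.16 in R 4.3.3 (TMM factors, filterByExpr, robust quasi-likelihood F test), leaving 19496, 18843 and 20626 genes. Adjusted p-values are Benjamini-Hochberg over all genes tested, called under 0.05. Standard errors are the log2 fold change over the square root of F, and approximate 95% intervals are normal. Printed CPM use TMM sizes over all 36 libraries. DESeq2 1.42.0 and limma 3.58.1 (on log2 of the deposited values + 1), other scaling, no filter, covariates and leaving out libraries were alternatives. On simulated counts for injury in wild-type DRG (19496 genes), 69 of 100 genes changed 1.5-fold and 99 of 100 changed 2-fold were recovered, with 10 false calls. Libraries of 1 group differed by 2.62 to 64.5 times the sampling noise (chi-square per gene), so no pair agreed within sampling noise; this does not show separate animals.

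The 10 genes, the lists of related genes and the cell markers were chosen with earlier results of these data known. Named were all 10 genes, up to 3 called genes with the lowest adjusted p per list and comparison, and the 3 nearest patterns. Cd38 in naive DRG and Saraf in wild-type DRG fall outside this rule and were added after their values were seen. The deleted gene and 1 related gene are not reported here, and list counts between genotypes leave the deleted gene out. Groups follow the labels' tissue, genotype and treatment fields. Library codes and their letters come from the titles, and the numbers used for pairing come from the headers of the deposited columns.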

Additional observations from a re-analysis of the deposited data

Results flagged for a closer look

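The effect of injury differed between DRG and cord in 4 tests of the difference itself (edgeR, DRG minus cord). For Itpr1 it differed by 0.93 in wild type and 1.01 in knockout, for Ryr2 by -0.42 in wild type, and for Stim2 by 0.38 in wild type. In knockout the same difference was -0.24 ± 0.12 for Ryr2 (adjusted p = 0.168) and 0.22 ± 0.12 for Stim2 (adjusted p = 0.211). No library stood apart from its group by Dixon's test for any of the 10 genes (0 of 80 gene and group pairs, where about 1 in 20 would stand apart by chance).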

How the results depend on the processing

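Of 1094 alternative values of called genes, 1023 kept direction and call, 70 kept direction but lost the call, and 1 reversed: Itpr2 in naive DRG, at 0.026 with the blood covariate. Of 2826 alternative values of genes not called, 30 became calls. In the fit of only the 2 groups compared, the number of the 10 genes called for injury went from 3 to 1 in wild-type DRG, from 3 to 7 in knockout DRG and from 0 to 1 in knockout cord, and for genotype in SNI cord from 2 to 1. Without libraries A2 and A4 it went from 3 to 1 (injury in knockout DRG) and from 6 to 1 (genotype in naive DRG), and with the blood covariate from 6 to 0 in naive DRG. DESeq2 and limma each called 1 in place of 0 for genotype in SNI DRG and for injury in knockout cord. DESeq2 called 4 in place of 3 for injury in knockout DRG and 3 in place of 2 for genotype in SNI cord, and limma 3 in place of 4 in naive cord. With no filter on low counts, 1 in place of 2 was called in SNI cord. Leaving out 1 library at a time, counts ran from 0 to 7 (genotype in naive DRG), 0 to 1 (genotype in SNI DRG), 0 to 1 (injury in knockout cord; 1 without B6 or F8), 0 to 2 (genotype in SNI cord), 3 to 4 (injury in wild-type DRG), 2 to 4 (injury in knockout DRG), 2 to 3 (DRG minus cord, wild type) and 1 to 2 (DRG minus cord, knockout; 2 without DRG library E3). The tissue comparison kept 9 or 10, and naive cord 4. The cause of these changes was not tested. Read depth limits Ryr1, with 16 to 70 reads per library.

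Equal numbers in the headers of the deposited columns were checked as pairs. DRG and cord libraries with the same number correlated at 0.031 to 0.340, over 0.1 in 14 of 18 pairs. Their median was 0.161, against -0.044 for other numbers. Wild-type and knockout libraries with the same number correlated at over 0.1 in 1 of 5 naive and 2 of 4 SNI pairs of each tissue. All 18 DRG and cord pairs were positive, but whether a pair came from the same animal is not stated in the labels and was not tested. The wild-type and knockout pairs are too few to settle whether they share anything beyond the number. With a replicate block the counts called were the same: 6 in naive DRG, 4 in naive cord, 2 in SNI cord, and 10, 3 and 1 for the tissue comparisons. Injury within a tissue was not fitted with a block.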

Other observations

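Among the related genes, Rcn1 and Cd38 differed by genotype in both tissues. Rcn1, which encodes the ER calcium-binding protein reticulocalbin, was lower in knockout in naive DRG (27.8 against 41.7 CPM, -0.60 ± 0.08, edgeR adjusted p = 5.54e-05), SNI DRG (-0.63 ± 0.09), naive cord (-0.39 ± 0.09) and SNI cord (-0.61 ± 0.10), and was called in all 4 comparisons. Cd38 was higher in knockout in naive cord (36.4 against 20.4 CPM, 0.84 ± 0.06, adjusted p = 5.36e-10), SNI cord (0.89 ± 0.07) and SNI DRG (0.57 ± 0.14), and was not called in naive DRG (0.18 ± 0.13, adjusted p = 0.321). Sdf4, the gene of the calcium-binding protein Cab45, was higher in knockout in naive DRG (0.18 ± 0.04), naive cord (0.20 ± 0.04) and SNI cord (0.21 ± 0.04).

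The 10 genes varied more between wild-type than between knockout DRG libraries. The coefficient of variation was larger in wild type for 9 of 10 genes in naive DRG (median 13.1% against 7.84%) and for 8 of 10 in SNI DRG (18.3% against 6.02%). All genes together did likewise: between libraries of 1 group the chi-square per gene was 6.99 to 64.5 in naive and 7.78 to 59.7 in SNI wild-type DRG, against 4.3 to 15.7 and 4.5 to 11.8 in knockout DRG. For Atp2a2 it was 21.6% against 5.13% in naive and 33.7% against 6.03% in SNI DRG.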
